A study of Mus musculus with 18 samples.

Results

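The genes described here are 10 stress response genes of the p53 and Gadd45 families, Cdkn1a, Trp53, Mdm2, Ccng1, Gadd45a, Gadd45b, Gadd45g, Sesn1, Sesn2 and Bax, taken by their symbols from the 19057 lines of an expression table of mouse liver. The table holds 18 livers, 3 from each of 6 groups, and was made to ask how microbiota transplantation acts on the liver under a high-fat diet (HFD). All 10 genes had an RPKM (read number scaled to the length of the gene and the depth of the library) of at least 1 in at least 3 livers, as did 10507 genes in all, which are the genes tested. The 10 genes were chosen with measured values of these livers known, in which Cdkn1a differed between the groups, so their levels and differences are a description, and no p is given for them.

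All livers were of ICR mice labelled as 10 weeks old, and by the study's methods the animals were males. Con mice ate a regular diet. AOS mice carry the label of 10 mg/kg alginate oligosaccharide (AOS), a short sugar chain made from seaweed alginate, and HFD mice ate a purified high-fat diet. HFD+AOS mice are labelled with both. Con-FMT and A10-FMT mice ate the HFD and were given small intestinal content by mouth, once daily for 2 weeks, from donors given water or 10 mg/kg AOS. The content was pooled over the donors of a kind, so that the recipients of a group share 1 inoculum. The study's methods describe Con, HFD, Con-FMT and A10-FMT; the schedule of the AOS and HFD+AOS mice was not given in the sources used here. The labels give only replicate numbers. The p-values below rest on the spread between livers within groups, pooled over all 6 groups. They do not measure the spread of the compared groups alone.

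The protein p53 is a transcription factor that is kept scarce by Mdm2, a ubiquitin ligase that marks it for destruction. Under DNA damage and other stress p53 is held back from destruction and switches on genes that stop the cell cycle, repair DNA or start cell death, Mdm2 among them. The mRNA of p53 therefore need not follow the activity of the protein, and mRNA is all that was measured here. In liver, Cdkn1a (p21, an inhibitor of cyclin-dependent kinases) is also known to be controlled by fasting, by glucocorticoids and by the circadian clock.

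The p53 protein binds pairs of a 10-base half-site. In RefSeq's windows of 250 bases before each annotated start (GRCm38.p6), all 10 genes were found, with 12 windows between them. The p53 half-site, 10 bases long and the same on both strands, was present in 7 of the 12 windows, against 7.13% of 32851 windows of all genes. The E-box CACGTG, which clock proteins and other factors bind, was present in 3 of the 12, those of Bax, Gadd45b and Gadd45g, against 6.02% of all windows, and did not overlap a half-site there. A match is a description of the letters and does not show that a protein binds.

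Of the windows, 3 are shown, up to the first base of the gene in either annotation: those of the genes that differed most between the groups, Cdkn1a and Gadd45a, and that of Mdm2, which holds the same motif and stayed within a narrow range. Capitals mark p53 half-sites. The Cdkn1a stretch lies at chr17:29090729-29090975 on the plus strand, before the first of its 2 RefSeq starts, which lie 2790 bases apart. Its half-sites begin 73 and 51 bases before that start, and the window of the second start held none. The Gadd45a stretch is chr6:67037458-67037657 on the minus strand, and the Mdm2 stretch is chr10:117710759-117711008 on the minus strand, where the half-site begins 186 bases before the start.
Cdkn1a: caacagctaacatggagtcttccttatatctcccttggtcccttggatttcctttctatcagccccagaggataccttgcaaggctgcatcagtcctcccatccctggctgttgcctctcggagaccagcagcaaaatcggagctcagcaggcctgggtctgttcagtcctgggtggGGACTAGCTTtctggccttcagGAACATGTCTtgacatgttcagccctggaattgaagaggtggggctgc
Gadd45a: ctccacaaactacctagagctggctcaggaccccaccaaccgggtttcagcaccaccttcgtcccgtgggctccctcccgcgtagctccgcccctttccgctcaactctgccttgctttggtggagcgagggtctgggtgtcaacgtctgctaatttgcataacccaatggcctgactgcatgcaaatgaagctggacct
Mdm2: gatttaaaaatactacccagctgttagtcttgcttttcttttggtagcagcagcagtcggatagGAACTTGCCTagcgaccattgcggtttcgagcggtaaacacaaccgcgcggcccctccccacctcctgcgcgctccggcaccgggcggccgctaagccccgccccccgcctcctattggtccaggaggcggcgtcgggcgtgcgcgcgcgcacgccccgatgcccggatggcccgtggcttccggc
The half-site of Gadd45a begins 40 bases before its RefSeq start. It is not in the stretch shown, because the GENCODE model of the gene begins 50 bases farther upstream. The other half-sites were in the windows of Ccng1, Trp53, Bax and the second start of Sesn1. A p53-responsive promoter of Mdm2 is known within the gene, and lies outside this window.

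Before the levels, 3 facts on the libraries bear on them. The third Con liver lay between the other 2 Con livers for 98.0% of the 148 genes in which those differed by at least 1 on the log2 scale, and the third AOS liver lay between the other 2 AOS livers for 96.5% of 142 such genes, against 8.33% to 76.8% for the remaining 16 livers. Over these genes the best weighted mix of the other 2 came within a median log2 of 0.067 of the third Con liver and 0.083 of the third AOS liver. For the remaining 16 livers this median was 0.341 to 1.08. Whether the Con and AOS livers numbered 3 are independent was not tested, and both enter the pooled spread. The differences of Cdkn1a, Gadd45a, Ccng1, Bax and Sesn1 that rest on Con or AOS are therefore also given without the Con and AOS livers numbered 3. RPKM values hold no read numbers, but the smallest steps of 22 rare genes gave a median estimate of 11900000 reads a library, by which the lowest Cdkn1a value is worth about 6.68 reads and the lowest Gadd45b value about 3.36. Hepatocyte markers were high in every liver (Alb from 24367 to 41363 RPKM), as the tissue label says. Some markers of T cells (Cd3d at most 0.42), neutrophils (Ly6g at most 0.33) and bile duct (Cftr at most 0.06 RPKM) were low. Other markers of these lists were higher (S100a9 up to 4.94, Spp1 up to 36.84 RPKM). Kupffer cells (Clec4f, 13.67 to 32.99 RPKM), stellate cells (Dcn, 61.37 to 98.16) and sinusoidal endothelium (Clec4g, 21.94 to 29.66) had clear markers in every liver. Others of their lists were lower (Timd4 0.83 to 3.57, Des 0.8 to 1.6 and Lyve1 0.58 to 1.76 RPKM). In whole liver, fewer cells of a type and less RNA per cell cannot be told apart.

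Cdkn1a was the gene of the family that differed most. Its protein binds cyclin-dependent kinases and halts the cell at the entry to DNA synthesis. The gene is at chr17:29090976-29100727 on the plus strand (GENCODE M21, GRCm38), its longest transcript has 3 exons, and a tentative transcript model, AC167363.2, overlaps it on the opposite strand. Whether reads were assigned by strand was not given in the sources used here.
The 3 Con livers had 11.26, 11.94 and 12.10 RPKM of Cdkn1a. The AOS livers had 13.12, 6.73 and 8.78 RPKM, and the HFD livers 11.99, 11.81 and 16.47 RPKM. These 9 livers overlapped across their groups. The HFD+AOS livers had 0.91, 0.51 and 0.73 RPKM. The A10-FMT livers had 0.41, 0.27 and 2.18 RPKM. The Con-FMT livers, at 6.18, 9.49 and 5.38 RPKM, lay between, below every Con and every HFD liver and overlapping with AOS. All 6 livers of HFD-fed mice that were labelled with AOS or received content of AOS-dosed donors (0.27 to 2.18 RPKM) were thus below all 12 others (5.38 to 16.47 RPKM).

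By group means the order was HFD (13.4 ± 2.64 RPKM, SD, n = 3), Con (11.8 ± 0.446), AOS (9.54 ± 3.26), Con-FMT (7.02 ± 2.18), A10-FMT (0.953 ± 1.06) and HFD+AOS (0.717 ± 0.200). Neighbours in that order overlapped in range except Con-FMT and A10-FMT. The third A10-FMT liver had over 5 times the level of its group's others, and the spread of A10-FMT exceeded its mean.

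**Figure D1:**
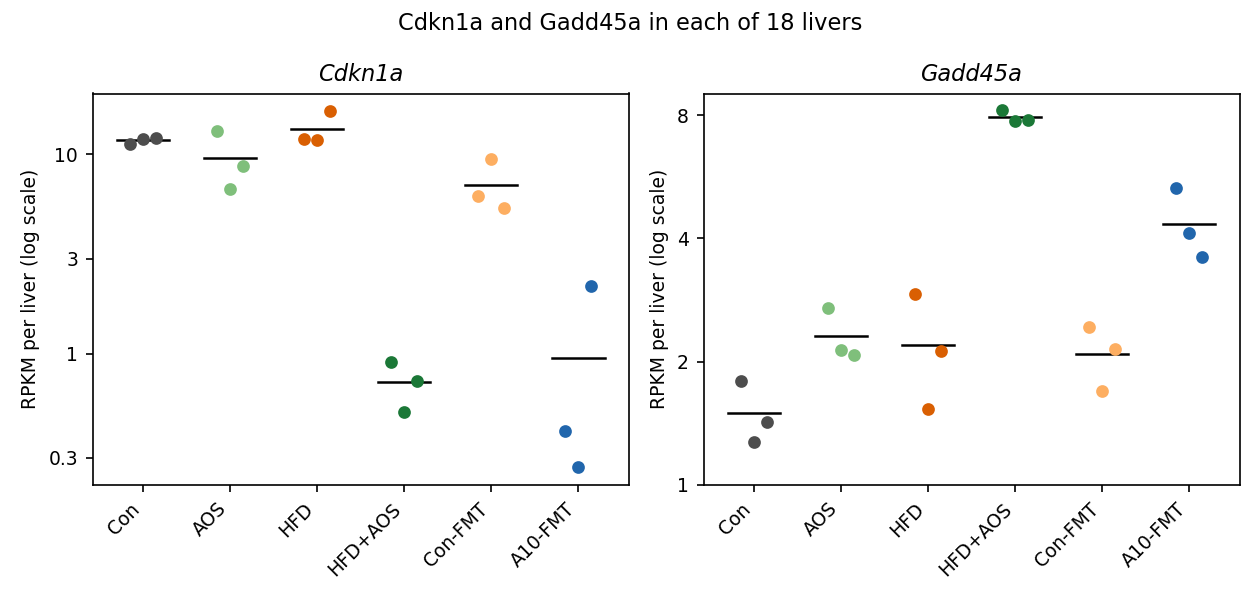
RPKM of Cdkn1a (left) and Gadd45a (right) in each liver, on log axes, with 1 point a liver and a bar at the mean of each group of 3. For Cdkn1a the HFD+AOS and A10-FMT livers lie at 0.27 to 2.18 RPKM, under all others, and for Gadd45a they lie at 3.60 to 8.24 RPKM, above all others.

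Differences were fitted with limma on log2(RPKM + 1) over all 10507 genes, and a gene was called at an adjusted p under 0.05. On this scale the change of a low gene is understated. Compared to HFD, Cdkn1a was lower by a log2 of -3.0 ± 0.29 (SE) in A10-FMT and -3.06 ± 0.29 in HFD+AOS. Both comparisons use the same 3 HFD livers, so they are not independent of each other. The mean RPKM of HFD was 14.1 times that of A10-FMT and 18.7 times that of HFD+AOS. Compared to Con-FMT, A10-FMT was lower by -2.13 ± 0.29, with groups that did not overlap. In Con-FMT against HFD the difference was -0.87 ± 0.29, with a 95% interval (with the degrees of freedom of the fit) from -1.48 to -0.25, and was not called although the groups did not overlap.
Neither AOS on the regular diet nor the HFD by itself came with a call of Cdkn1a. AOS against Con was -0.32 ± 0.29 (interval -0.93 to 0.29), and -0.27 without the third Con and AOS livers. HFD against Con was 0.16 ± 0.29 (interval -0.45 to 0.77), and 0.18 without the third livers. The effect of AOS under HFD differed from that on the regular diet by -2.74 ± 0.41, and by -2.79 without the third livers.

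How many of the 10 genes were called can be read only beside the share of all genes called, since the genes were chosen from these values. In A10-FMT against HFD 2 of the 10 were called, Cdkn1a lower and Gadd45a higher, beside 6.6% of all tested genes (2.62% higher and 3.98% lower). In HFD+AOS against HFD the same 2 were called, beside 8.75% (4.17% higher and 4.58% lower). In A10-FMT against Con-FMT these 2 were again called, beside 1.68%, and in the difference of the AOS effect between diets, beside 0.504%. In HFD against Con, 0 of the 10 were called by limma, beside 0.381% of all genes. In AOS against Con 0 were called by limma, beside 0.133%, and in Con-FMT against HFD 0, beside 0.00952%. In the same order, 2, 2 and 1 of the 10 had an unadjusted p under 0.05, beside 15.4%, 15.5% and 6.63% of all tested genes. The split of all calls depended on the scaling: 39.7% of those in A10-FMT against HFD were higher as deposited, 56.4% with each library's median set equal and 22.2% with each library scaled to the same sum, and in A10-FMT against Con-FMT 27.1%, 44.4% and 11.4%. With equal medians the share higher went from 77.5% to 51.1% in HFD against Con, from 71.4% to 50% in AOS against Con and from 28.3% to 47.7% in the difference between diets, and scaling to the same sum left 1 of 2 calls higher in Con-FMT against HFD, where the deposited values had 0 of 1. Neither scaling moved the median of all genes by more than 0.09, and Cdkn1a and Gadd45a kept their directions and calls under both. The median log2 difference of the 10 genes was -0.06 in A10-FMT against HFD and -0.06 in HFD+AOS against HFD, where those of all tested genes were -0.03 and -0.01.

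**Figure D2:**
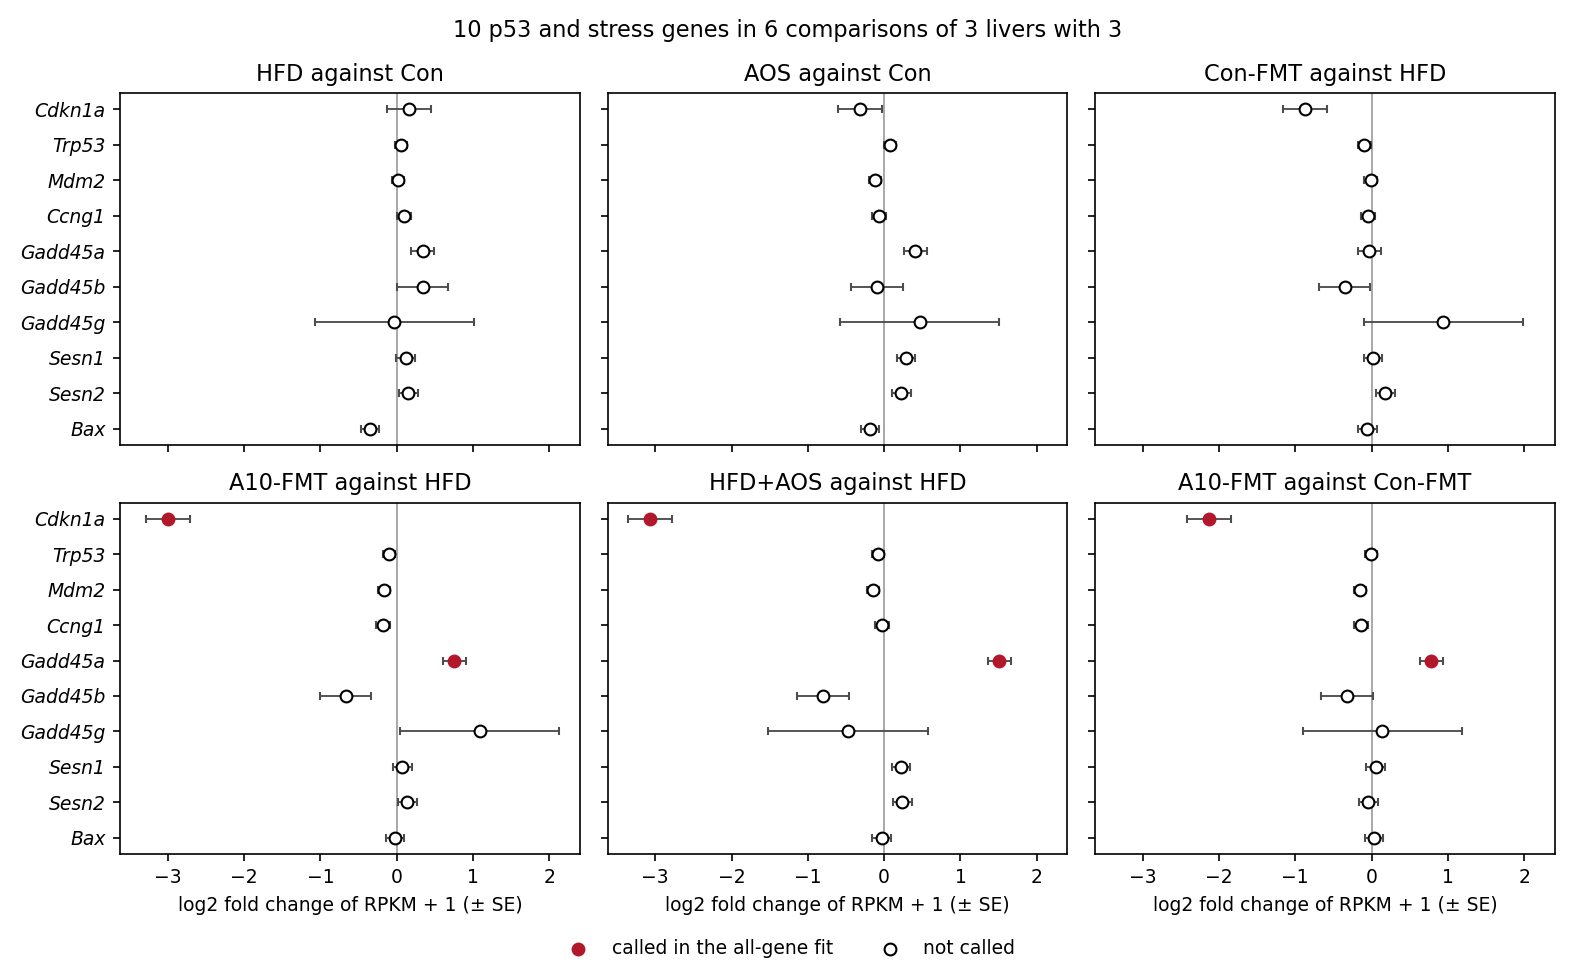
Log2 fold change of RPKM + 1 with its SE for each of the 10 genes in 6 comparisons of 3 livers with 3, filled where the gene was called in the fit over all genes. Cdkn1a at -3.0 and -3.06 and Gadd45a at 0.75 and 1.51 stand apart from the other genes in the comparisons of A10-FMT and HFD+AOS with HFD, and Gadd45g has the widest error.

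The 3 Gadd45 genes code for small proteins that bind p21, PCNA and the kinase Map3k4, through which they feed into p38 and JNK signalling. Gadd45a (chr6:67035096-67037457, minus strand), the member of the family that p53 is known to switch on, was the only one of the 3 called in any comparison with all livers in the fit. A non-coding gene, E230016M11Rik, overlaps it on the opposite strand.
The HFD+AOS livers had 8.24, 7.75 and 7.79 RPKM of Gadd45a, and the A10-FMT livers 5.31, 4.12 and 3.60 RPKM. The HFD livers had 2.92, 1.53 and 2.12 RPKM and the Con-FMT livers 2.43, 1.69 and 2.15 RPKM. HFD+AOS was above every A10-FMT liver, and A10-FMT above every liver of the other groups. The Con livers had 1.79, 1.27 and 1.42 RPKM, and the AOS livers, at 2.71, 2.13 and 2.08 RPKM, were all above them. By group means the order was HFD+AOS (7.93 ± 0.272 RPKM, SD, n = 3), A10-FMT (4.34 ± 0.877), AOS (2.31 ± 0.350), HFD (2.19 ± 0.698), Con-FMT (2.09 ± 0.374) and Con (1.49 ± 0.268), and the last 4 overlapped with their neighbours. Where Cdkn1a was low, Gadd45a was thus high.

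Compared to HFD, Gadd45a was higher by 0.75 ± 0.15 in A10-FMT and by 1.51 ± 0.15 in HFD+AOS, where the mean RPKM was 1.98 and 3.62 times that of HFD. A10-FMT was higher than Con-FMT by 0.78 ± 0.15. Con-FMT against HFD was -0.03 ± 0.15, HFD against Con 0.34 ± 0.15 (0.32 without the third Con and AOS livers) and AOS against Con 0.41 ± 0.15 (0.44 without them), none of them called. The effect of AOS was larger under HFD by 1.10 ± 0.21.
Several of the Gadd45a calls rest on few livers. The call in A10-FMT against Con-FMT was lost without the first A10-FMT liver (0.66), the second A10-FMT liver (0.81) or the second Con-FMT liver (0.69). The call of the difference between diets was lost without the Con and AOS livers numbered 3 (1.07), without 1 of the libraries Con 1 (1.02), Con 3 (1.12), AOS 2 (1.06), AOS 3 (1.05), HFD 2 (0.94), HFD 3 (1.10), HFD+AOS 1 (1.07) or HFD+AOS 2 (1.11), with a pseudocount of 0.1 (1.26) and without the filter on low values (1.10). With only the groups compared in the fit, Gadd45a was not called in A10-FMT against HFD or Con-FMT, nor Cdkn1a in A10-FMT against Con-FMT, at the same log2 values. Cdkn1a was called in every other alternative for A10-FMT against HFD or Con-FMT, HFD+AOS against HFD and the difference between diets, and without 1 liver of either group it stayed between -3.41 and -2.75 in A10-FMT against HFD.

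Gadd45b, which liver is known to induce during regeneration, was near the lower limit of detection. The HFD livers had 0.43, 2.40 and 3.33 RPKM of Gadd45b, and their range held those of all other groups but the lowest HFD+AOS liver. The HFD+AOS livers had 0.22, 0.43 and 1.27 RPKM and the A10-FMT livers 1.37, 0.54 and 0.43 RPKM. Con (0.86 to 1.55), AOS (0.81 to 1.30) and Con-FMT (0.69 to 1.90 RPKM) overlapped with all of these. Gadd45b was at -0.67 ± 0.34 in A10-FMT and -0.80 ± 0.34 in HFD+AOS against HFD and was not called. The absence of a call rests on the first HFD liver: without it the values were -1.15 and -1.28, and Gadd45b was called lower in each.

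Gadd45g, the member of the family most often linked to growth arrest by cytokines, had the widest spread within groups of the 10 genes, wider than 99.9% of all tested genes. The HFD+AOS livers had 2.13, 1.10 and 54.47 RPKM and the A10-FMT livers 27.60, 3.85 and 66.10 RPKM. Con had 4.65 to 15.80, AOS 10.40 to 15.39, HFD 2.60 to 18.58 and Con-FMT 14.90 to 20.63 RPKM. The HFD+AOS and A10-FMT livers thus held both the lowest and the highest values. Its SE of 1.04 exceeded each difference between groups except the 1.08 of A10-FMT against HFD, and Gadd45g was not called in any comparison. In HFD+AOS against HFD its sign turned from -0.47 to 0.12 without the first HFD+AOS liver, to 0.41 without the second and to 0.02 without the second HFD liver, and it was -1.95 without the third HFD+AOS liver and -1.21 without the first HFD liver.

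Trp53, which codes for p53 itself (chr11:69580359-69591873, plus strand), hardly differed between livers. The lowest of the 18 livers had 11.66 RPKM of Trp53, the median was 13.6 and the highest was 14.78, and all 6 groups overlapped with their neighbours in order of means. Its spread within groups was larger than that of only 12.5% of tested genes. Trp53 was at -0.10 ± 0.08 in A10-FMT and -0.08 ± 0.08 in HFD+AOS against HFD, with 95% intervals from -0.27 to 0.07 and from -0.25 to 0.09.

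Mdm2, the ligase and itself a p53 target (chr10:117688875-117710758, minus strand), ran from 7.30 to 9.64 RPKM with a median of 8.04. The A10-FMT livers (7.70, 7.96 and 7.44 RPKM) were all just below the HFD livers (7.97, 8.91 and 9.42 RPKM). The difference was -0.16 ± 0.08 and was not called, and that in HFD+AOS against HFD was -0.14 ± 0.08. For Mdm2 these differences are small beside the -3.0 and -3.06 of Cdkn1a.

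Ccng1, which codes for cyclin G1, a p53 target that acts back on the p53 and Mdm2 pair, ran from 8.05 to 11.05 RPKM. Its HFD livers (10.35, 10.95 and 10.27 RPKM) were all above the Con livers (9.25, 10.12 and 10.12 RPKM) and the A10-FMT livers (9.16, 8.22 and 10.24 RPKM). HFD differed from Con by 0.09 ± 0.09 (0.11 without the third Con liver) and A10-FMT from HFD by -0.18 ± 0.09, and Ccng1 was not called in either comparison.

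Bax, which opens the outer membrane of mitochondria in apoptosis, had the highest RPKM of the 10 genes in every liver except 4 in which Gadd45g was higher, and ran from 16.98 to 27.98. It was highest in Con. The Con livers had 27.98, 24.52 and 25.15 RPKM and were above all 15 others. The AOS livers had 23.80, 22.03 and 21.85 RPKM, and the 12 livers of HFD-fed mice ran from 16.98 to 22.97 RPKM. HFD against Con was -0.35 ± 0.12 and AOS against Con -0.19 ± 0.12, or -0.37 and -0.19 without the third livers, and Bax was not called in either. Against HFD, Bax in the 3 other HFD-fed groups differed by -0.05 to -0.02. A further protein-coding model, Gm45808, overlaps Bax on the same strand, and reads of both could have been shared.

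The sestrins bind leucine and quiet the growth kinase TORC1, and Sesn2 is also a target of the integrated stress response. The Con livers had 3.95, 3.76 and 3.85 RPKM of Sesn1 and the AOS livers 5.11, 4.59 and 5.09 RPKM, without overlap. That difference was 0.29 ± 0.12 (0.27 without the third livers) and was not called. HFD (3.38 to 5.17 RPKM), HFD+AOS (4.59 to 5.75), Con-FMT (3.92 to 4.90) and A10-FMT (3.73 to 5.22) overlapped with each other.
Sesn2 ran from 1.10 to 2.48 RPKM. The lowest mean of Sesn2 was that of Con and the highest that of HFD+AOS, and neighbouring groups overlapped throughout. Its difference was 0.24 ± 0.12 in HFD+AOS and 0.14 ± 0.12 in A10-FMT against HFD, not called in either. Tentative or non-coding models overlap both sestrin genes on the same strand.

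**Figure D3:**
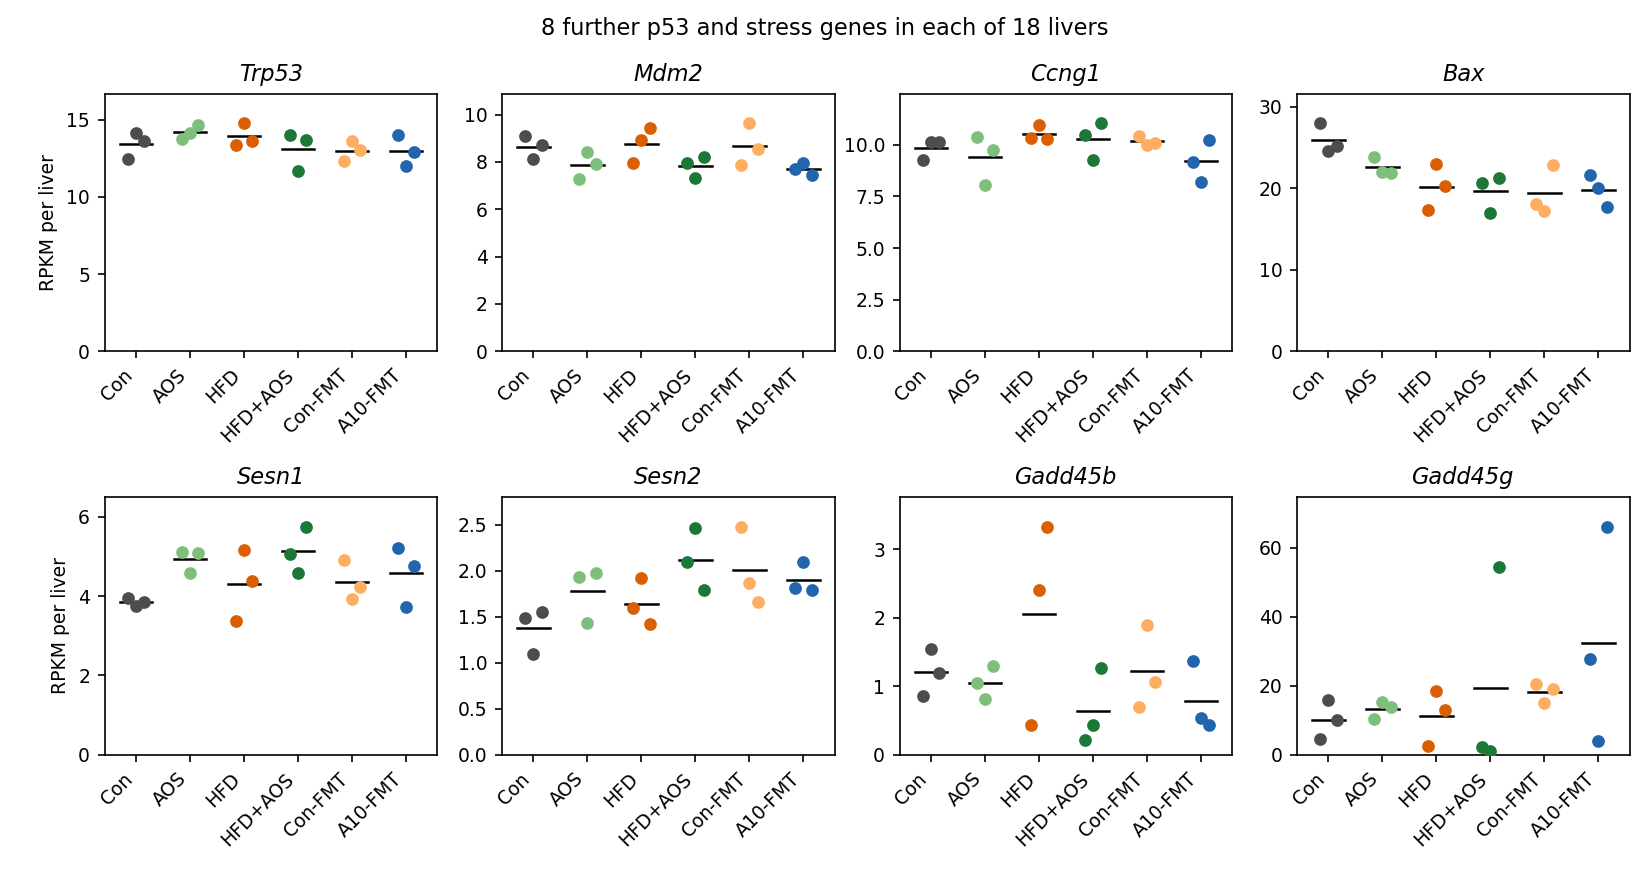
RPKM of Trp53, Mdm2, Ccng1, Bax, Sesn1, Sesn2, Gadd45b and Gadd45g in each liver, on axes from 0, with a bar at the mean of each group of 3. Trp53 stays between 11.66 and 14.78 RPKM, the Con livers are highest for Bax, and single HFD+AOS and A10-FMT livers reach 54.47 and 66.10 RPKM of Gadd45g.

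Other genes of these pathways were taken from 10 lists with 176 genes, of which 135 were tested, and these lists too were chosen with earlier results of the livers known. In all, 12 of the 135 (8.89%) were called in A10-FMT against HFD and 12 in HFD+AOS against HFD, beside the 6.6% and 8.75% of all tested genes, so these shares are near the background. Of 39 p53 targets beyond the 10 genes, 30 were tested, and 0 were called by limma in A10-FMT against HFD and 0 in HFD+AOS against HFD. In each, 8 of the 30 had an unadjusted p under 0.05, as had 24.5% and 26.2% of all tested genes, with 4 higher and 4 lower in the first and 5 higher and 3 lower in the second. Leaving out 1 liver gave 0 to 3 calls in the first and 0 to 2 in the second. Trp53inp1, a p53-induced nuclear protein named after its values were seen, was at 9.37 to 25.21 RPKM in HFD, 7.68 to 8.13 in A10-FMT and 7.56 to 8.98 in HFD+AOS, without overlap with HFD. Its difference was -0.80 ± 0.24 in A10-FMT (limma, adjusted p = 0.056) and -0.76 ± 0.24 in HFD+AOS (adjusted p = 0.060). Their median difference was -0.04 in the first (12 higher, 18 lower) and 0.09 in the second (20 higher, 10 lower). The only call in any comparison was Ei24, which codes for an endoplasmic reticulum protein of autophagy. Ei24 fell by 0.42 ± 0.10 on the log2 scale in A10-FMT against Con-FMT (limma, adjusted p = 0.035; 3 of 3 livers below all Con-FMT livers). The Ei24 call was lost in 9 of 13 alternatives, with an adjusted p of up to 0.189, among them those without the first or second liver of either group.

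Of 23 regulators of p53, 19 were tested, and Hipk2, a kinase that phosphorylates p53, was the only one called. Its level was 4.13 to 5.48 RPKM in HFD, 3.22 to 3.91 in A10-FMT and 3.11 to 3.65 in HFD+AOS. Hipk2 fell by 0.39 ± 0.10 in A10-FMT (limma, adjusted p = 0.036) and by 0.42 ± 0.10 in HFD+AOS (adjusted p = 0.024) against HFD. Each call was lost without the second or the third HFD liver or the first or second liver of the other group (adjusted p up to 0.171 and 0.108 over the alternatives). The relatives of Cdkn1a (4 of 6 inhibitors tested), the G1 cyclins and kinases (8 of 11 tested) and the partners of the sestrins in TORC1 control (16 of 18 tested) had 0 calls by limma in all comparisons. At an unadjusted p under 0.05 they had at most 2, 3 and 3 genes in any comparison. Over the comparisons, 6.63% to 26.2% of all tested genes had such a p. The lowest share was that of Con-FMT against HFD, where the 3 G1 genes were. Cdkn1b (p27), the nearest relative named here for contrast after its values were seen, was at -0.10 ± 0.10 in A10-FMT and 0.06 ± 0.10 in HFD+AOS against HFD.

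Of the Bcl2 family, to which Bax belongs, 14 of 17 were tested and 3 rose in both comparisons with HFD, where 6.6% and 8.75% of all tested genes were called. Bmf, a sensor protein that promotes apoptosis, was at 0.77 to 1.31 RPKM in HFD, 2.92 to 9.58 in A10-FMT and 4.09 to 6.07 in HFD+AOS. Bmf rose by 1.61 ± 0.27 in A10-FMT (limma, adjusted p = 0.0025) and by 1.55 ± 0.27 in HFD+AOS (adjusted p = 0.0032), and the first call was lost with only the groups compared (highest adjusted p 0.076). Bnip3, which tags mitochondria for removal, rose by 0.87 ± 0.16 (limma, adjusted p = 0.0047) and 0.75 ± 0.16 (adjusted p = 0.012), with the first call lost in the same way (0.060). Bcl2l11 (Bim) rose by 0.41 ± 0.10 (limma, adjusted p = 0.018) and 0.33 ± 0.10 (adjusted p = 0.043). The Bcl2l11 call was lost without the third HFD or first A10-FMT liver in the first comparison, and in 10 of 13 alternatives in the second, with any 1 HFD liver left out among them (adjusted p up to 0.154 and 0.151). Con-FMT, whose donors had water, was also above every HFD liver in Bcl2l11, at 1.56 to 1.81 against 1.06 to 1.19 RPKM. The same held for Bnip3, at 83.55 to 97.87 in Con-FMT against 64 to 68.06 RPKM in HFD. Bmf in Con-FMT, at 1.28 to 2.98 RPKM, overlapped with HFD, and 0 of the family were called by limma in Con-FMT against HFD. Of the 11 other members tested, 0 were called by limma in A10-FMT and HFD+AOS against HFD. In each, 2 had an unadjusted p under 0.05, as had 24.5% and 26.2% of all tested genes.

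Among the inputs and partners of the Gadd45 proteins, 11 of 13 were tested. Map2k6, the kinase that activates p38, had 1.46 to 1.88 RPKM in HFD, 4.05 to 6.09 in A10-FMT and 4.21 to 5.68 in HFD+AOS. Con-FMT, at 1.94 to 2.97 RPKM, and AOS, at 2.25 to 3.08, were also above every HFD liver. Con, at 1.07 to 3.02 RPKM, overlapped with HFD. Map2k6 rose by 1.25 ± 0.20 in A10-FMT (limma, adjusted p = 0.0017) and by 1.12 ± 0.20 in HFD+AOS (adjusted p = 0.0034) against HFD, and was called in all 13 alternatives of each. Against Con-FMT, A10-FMT was higher in Map2k6 by 0.83 ± 0.20 (limma, adjusted p = 0.049), a call lost in 11 of 13 alternatives, 5 of them without 1 of the livers Con-FMT 1 to 3 or A10-FMT 1 or 2 (adjusted p up to 0.218). Map2k3, which acts beside it, rose by 0.39 ± 0.11 in A10-FMT against HFD (limma, adjusted p = 0.041), lost without HFD 1, HFD 3, A10-FMT 1 or A10-FMT 2 and in 8 of 13 alternatives in all (adjusted p up to 0.202).

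The integrated stress response, a pathway that slows translation and induces Sesn2 among others, had 13 of 18 genes tested. Fgf21, a liver hormone of fasting and dietary stress, was at 0.78 to 1.00 RPKM in Con, 2.46 to 5.64 in HFD, 3.22 to 7.82 in Con-FMT and 1.08 to 1.37 in A10-FMT. AOS, at 2.2 to 2.81 RPKM, was also above every Con liver, without a call against Con. HFD+AOS, at 2.27 to 4.2 RPKM, overlapped with HFD, and Fgf21 was not called in that comparison. Fgf21 rose by 1.44 ± 0.25 in HFD against Con (limma, adjusted p = 0.028), and in A10-FMT it fell by 1.25 ± 0.25 from the HFD level (adjusted p = 0.0081) and by 1.47 ± 0.25 from that of Con-FMT (adjusted p = 0.0055). The rise was not called without Con 1, Con 3, HFD 1 or HFD 3, nor without the Con and AOS livers numbered 3 (adjusted p up to 0.205), and both falls only with the compared groups alone (0.064 and 0.105).
Atf5, a transcription factor of that response, fell by 0.80 ± 0.19 in A10-FMT against HFD (limma, adjusted p = 0.021) and by 0.88 ± 0.19 against Con-FMT (adjusted p = 0.028). Both were lost without the first or second A10-FMT liver, the first also without HFD 2 or HFD 3 and the second without Con-FMT 2 (adjusted p up to 0.186 and 0.274). Ddit4, an inhibitor of TORC1 that p53 also induces, fell by 0.65 ± 0.18 in A10-FMT (limma, adjusted p = 0.045) and by 0.79 ± 0.18 in HFD+AOS (adjusted p = 0.017) against HFD. For Ddit4 the first call was lost in 10 of 13 alternatives, with any 1 HFD liver or A10-FMT 1 or 2 left out among them, and the second without HFD 3 or HFD+AOS 1 (adjusted p up to 0.238 and 0.072). Trib3, an inhibitor of Akt, rose by 1.54 ± 0.35 in HFD+AOS against HFD (limma, adjusted p = 0.015), lost without the third liver of either group (adjusted p up to 0.078). The list thus had calls in both directions, and its median was -0.23 in A10-FMT and -0.34 in HFD+AOS against HFD.

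**Figure D4:**
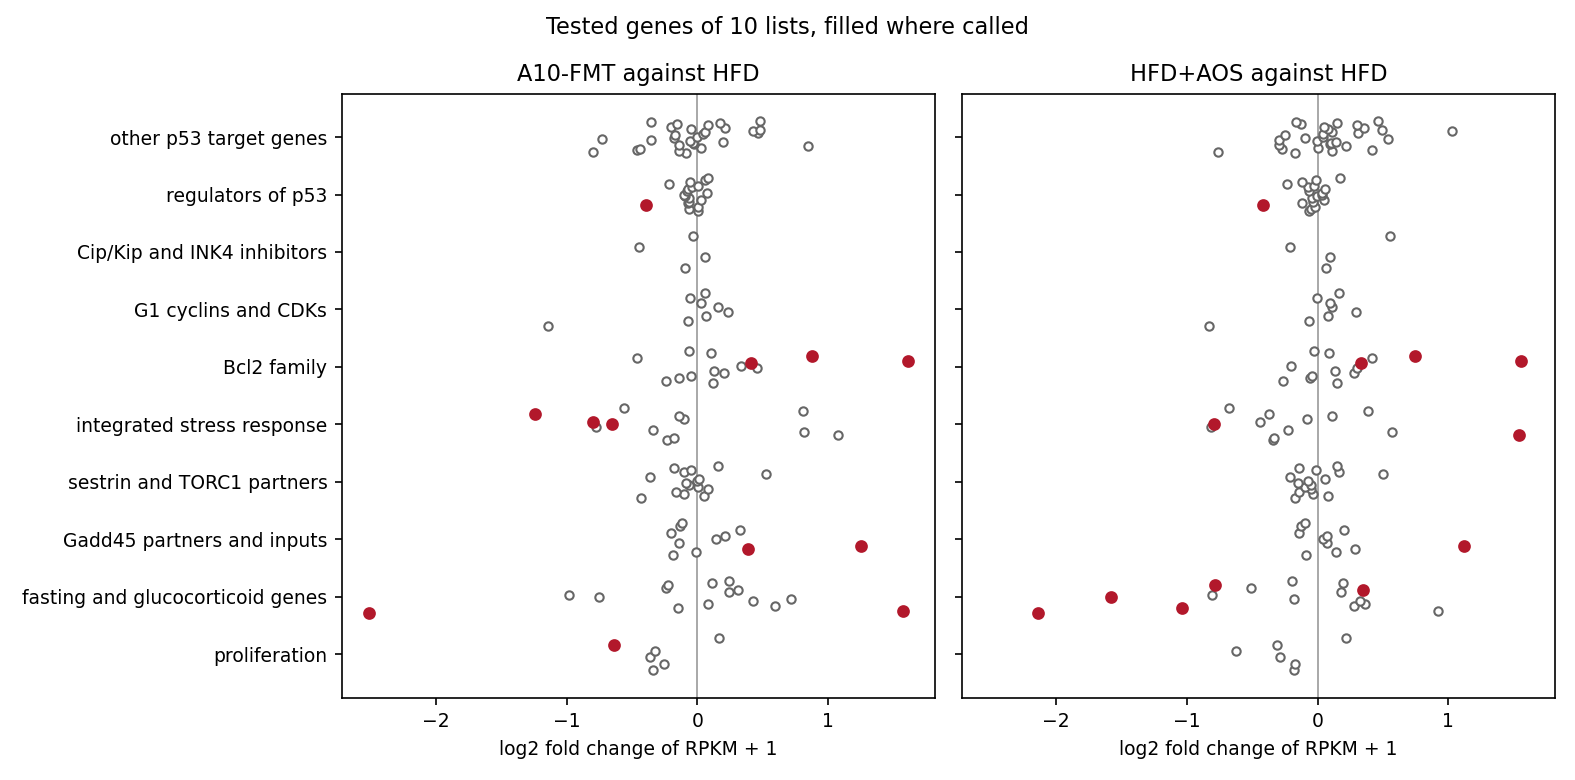
Log2 fold change of RPKM + 1 of the tested genes of 10 lists in A10-FMT against HFD (left) and HFD+AOS against HFD (right), which share the HFD livers, with 1 point a gene and filled points for genes called over all tested genes. None of the 30 tested p53 targets is filled in either panel, while 3 genes of the Bcl2 family are filled to the right of 0 in both.

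Fasting and glucocorticoids are known to act on Cdkn1a in liver, so 16 of their target genes were listed, and 15 were tested. In A10-FMT against HFD 2 of the 15 were called, beside 6.6% of all tested genes. Igfbp1, an insulin-repressed binding protein, fell by 2.51 ± 0.61 (limma, adjusted p = 0.023), and Per1, a clock gene that glucocorticoids induce, rose by 1.57 ± 0.39 (adjusted p = 0.024). In HFD+AOS against HFD 5 of the 15 were called, beside 8.75% of all tested genes. These were Igfbp1 at -2.14 ± 0.61 (limma, adjusted p = 0.041), G6pc at -1.58 ± 0.35 (adjusted p = 0.014), Tsc22d3 at -1.04 ± 0.30 (adjusted p = 0.043), Zbtb16 at -0.78 ± 0.15 (adjusted p = 0.0052) and Foxo3 at 0.35 ± 0.10 (adjusted p = 0.045). Igfbp1 in HFD ran from 11.18 to 138.83 RPKM, and in Con-FMT from 10.35 to 21.83 RPKM. It was at 2.86 to 10.16 RPKM in A10-FMT and 6.66 to 10.85 in HFD+AOS. Both Igfbp1 calls were lost without HFD 2 or HFD 3, the first also without A10-FMT 2 and the second without any 1 of the HFD+AOS livers. Per1 lost its call without HFD 1, HFD 2, A10-FMT 1 or A10-FMT 2, and Foxo3 without any 1 of the 6 livers compared. The calls of Tsc22d3 and G6pc were lost without HFD 3, HFD+AOS 1 or HFD+AOS 2, and that of Tsc22d3 also without HFD 2. Over the alternatives the adjusted p of these genes reached 0.198 for Igfbp1, 0.092 for Per1, 0.145 for Foxo3, 0.175 for Tsc22d3 and 0.097 for G6pc.
Zbtb16, a zinc finger gene that glucocorticoids induce, was called in all 13 alternatives of HFD+AOS against HFD. Its level was 1.15 to 1.32 RPKM in Con, 2.04 to 3.64 in AOS, 1.69 to 2.01 in HFD and 0.55 to 0.74 in HFD+AOS. AOS was thus above Con on the regular diet, and HFD+AOS was below HFD. Con-FMT, at 0.86 to 1.23 RPKM, was also below every HFD liver, and A10-FMT, at 0.99 to 1.98 RPKM, overlapped with HFD.
Cdkn1a is known to hold back proliferation, and of 18 proliferation genes listed, 6 passed the filter on low values. Mcm7, a part of the helicase that opens DNA for replication, fell by 0.64 ± 0.13 in A10-FMT against HFD (limma, adjusted p = 0.0087, lost with only the groups compared at 0.130), and no other was called in any comparison by limma, where at most 3 of the 6 had an unadjusted p under 0.05. The second HFD liver stood apart, with the highest level of all 18 livers for 17 of the 18 genes. It had 1.62 RPKM of the proliferation marker Mki67, where the 17 other livers had at most 0.28, and 8.64 RPKM of Mcm7, where they had at most 6.73. Without that liver Mcm7 was at -0.45 (limma, adjusted p = 0.030).

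Arntl, a clock gene, had the level most like that of Cdkn1a, and other clock genes were among the most opposite. Over the 18 livers the tested genes most like Cdkn1a by Pearson's r of log2(RPKM + 1) included Arntl (0.98), Chka (0.98), Slc30a10 (0.97), Lgalsl (0.97), Mical2 (0.97), Lrfn3 (0.97), Leo1 (0.96), Tubb2a (0.96) and Nedd4l (0.95). In all, 0.524% of tested genes had an r of at least 0.9. These values are a description, since the points share their groups, and much of each r is the gap between the HFD+AOS and A10-FMT livers and the rest. Over the other 12 livers r was 0.69 for Arntl, 0.69 for Chka and 0.84 for Lgalsl.
Arntl (Bmal1), the activator at the core of the circadian clock, had 1.18, 1.23 and 1.32 RPKM in HFD+AOS and 0.79, 0.69 and 2.41 in A10-FMT, against 12.11, 14.64 and 13.21 in HFD. Con-FMT had 8.02, 12.97 and 6.94 RPKM, and Con 10.11 to 12.90. The highest liver of A10-FMT (the third) and that of Con-FMT (the second) were the same for Arntl and Cdkn1a, but in AOS the order of the livers was the reverse (Arntl at 11.16, 12.72 and 11.81 RPKM), and in HFD the highest was the third for Cdkn1a and the second for Arntl. The genes with the most opposite pattern, named after their values were seen, were Ciart (-0.97), Per3 (-0.96), Wee1 (-0.95), Gys2 (-0.95) and Tef (-0.94), of which Ciart, Per3 and Tef are clock output or repressor genes that peak opposite to Arntl. Ciart had 7.21 to 14.63 RPKM in the HFD+AOS and A10-FMT livers and at most 1.90 in the 12 others. The hour at which livers were collected was not given in the sources used here, and the part of the clock in the Cdkn1a values was not tested.

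**Figure D5:**
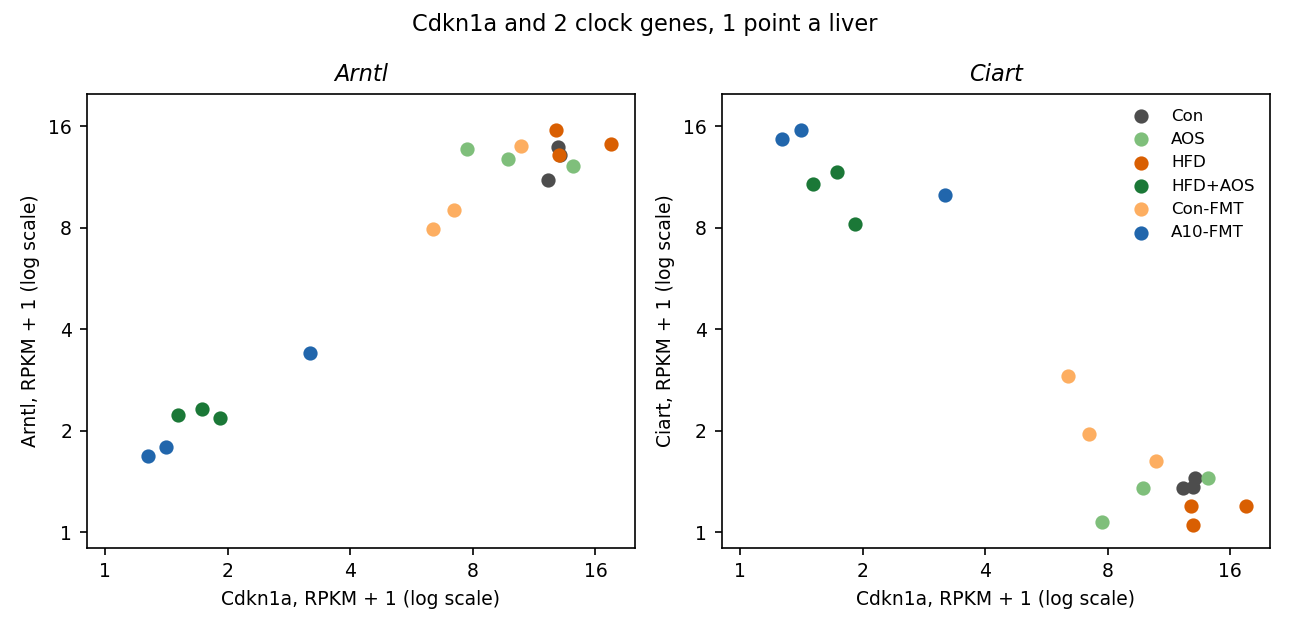
RPKM + 1 of Arntl (left) and Ciart (right) against that of Cdkn1a, on log axes, with 1 point a liver coloured by group. The HFD+AOS and A10-FMT livers lie apart from the 12 others in both panels. Con-FMT 1 and Con-FMT 3 lie nearest to them, and Con-FMT 2 (9.49 RPKM of Cdkn1a) lies among the rest.

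Among the 10 genes themselves, r with Cdkn1a over the 18 livers was -0.87 for Gadd45a, 0.51 for Mdm2 and Gadd45b, 0.38 for Trp53, 0.34 for Bax, 0.28 for Ccng1, 0.05 for Gadd45g, -0.35 for Sesn1 and -0.51 for Sesn2. Without the HFD+AOS and A10-FMT livers that of Gadd45a was -0.17.

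Some markers of cell types were also called beside these genes. Sox9, a gene of bile duct cells, fell by 1.03 ± 0.15 in A10-FMT (limma, adjusted p = 0.00089) and by 0.87 ± 0.15 in HFD+AOS (adjusted p = 0.0032) against HFD. The summed level of the 8 bile duct markers was 18.97 to 25.61 RPKM in HFD, 20.46 to 24.57 in A10-FMT and 21.47 to 29.94 in HFD+AOS. Most of this sum is Spp1. The 7 others, with Sox9, summed to 4.2 to 5.65 RPKM in HFD, 2.47 to 4.01 in A10-FMT and 2.85 to 3.66 in HFD+AOS. That gap without overlap is largely Sox9 itself, with means of 2.91, 0.91 and 1.14 RPKM in these groups. Of the 3 bile duct markers tested, 2 were higher than in HFD in each comparison, and only Sox9 was called. Cldn4 and Cftr were under 0.5 RPKM in every liver. The 10 hepatocyte markers summed to 64482 to 73583 RPKM in HFD, 64052 to 68337 in A10-FMT and 70670 to 78262 in HFD+AOS. Of these, 2 were called in A10-FMT and 3 in HFD+AOS against HFD, beside 6.6% and 8.75% of all tested genes. Cyp2e1 was higher in both (limma, adjusted p = 0.0079 and 0.013), and was called in 12 of 13 alternatives of each. Apob was lower in both (limma, adjusted p = 0.020 and 0.025), and was called in 8 and 6 of 13. Hnf4a was at -0.26 ± 0.08 in HFD+AOS (limma, adjusted p = 0.047), and was called in only 3 of 13 (adjusted p up to 0.171). Of the Kupffer cell, stellate and sinusoidal endothelium markers (10 of 10 tested each), the lymphocyte markers (3 of 9) and the neutrophil markers (2 of 8), 0 were called by limma in these 2 comparisons, and 2 stellate markers in each had an unadjusted p under 0.05 (24.5% and 26.2% of all tested genes had). Their summed levels in HFD, A10-FMT and HFD+AOS ran from 89.1 to 208, 99.3 to 123 and 131 to 150 RPKM for Kupffer cells, and from 117 to 132, 133 to 140 and 114 to 151 RPKM for stellate cells. The part of cell composition in the Cdkn1a and Gadd45a values was not tested.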

How the data were processed

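Total RNA of frozen livers was sequenced on an Illumina HiSeq, and the authors transformed the read number of each gene into RPKM, deposited with 2 decimals for 19057 lines, 3 symbols being on more than 1 line. The study's methods name SOAPaligner, set to report all hits of a read, and the submitters' processing notes name Bowtie 0.12.2 and mm10, so reads of near-identical genes may count for several. Gene annotation and strand setting were not given in the sources used here. Groups came from the labels, and columns were matched by title.

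Values were log2(RPKM + 1), unscaled. The 10507 genes reaching 1 RPKM in 3 or more libraries entered limma 3.58.1 (R 4.3.3; lmFit, eBayes with trend, two-sided) with a mean for each of 6 groups over 18 livers, adjusted after Benjamini and Hochberg over all genes. DEGseq, the study's test, needs read numbers and was not run. The fit was tested on simulated data. The 10 genes and all lists were chosen with earlier results of these data known. Named beyond the 10 genes are called list genes, all if 5 or fewer in a list and comparison, otherwise the 3 in each direction with the smallest p, and the 10 genes most like Cdkn1a, of which 1 is not reported here. Same-numbered livers did not deviate together, with correlations from -0.177 to 0.225. Alternatives were 2 scalings, a pseudocount of 0.1, no filter, only the groups compared, the replicate number as a block, both livers numbered 3 (Con, AOS) left out and each liver left out. Tables and figures were made in Python 3.11.15 (pandas 2.3.3, numpy 2.4.6, matplotlib 3.10.9). Places are from GENCODE M21 and promoters from RefSeq.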

Additional observations from a re-analysis of the deposited data

Results flagged for a closer look

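The effect of AOS was tested for a difference between the diets over all genes (limma, an interaction term of Con, AOS, HFD and HFD+AOS), and 2 of the 10 genes and 1 of the 135 tested list genes (0.741%) were called, beside 0.504% of all tested genes. Cdkn1a differed by -2.74 ± 0.41 on the log2 scale, being at -0.32 in AOS against Con and -3.06 in HFD+AOS against HFD, and was chosen with this pattern known. Gadd45a differed by 1.10 ± 0.21, from 0.41 on the regular diet to 1.51 under HFD, and its call was lost in 11 of 19 alternatives. Zbtb16, a gene that glucocorticoids induce, differed by -1.50 ± 0.21 (limma, adjusted p = 0.0021), from 0.71 on the regular diet (not called, adjusted p = 0.071; 0.71 without the third Con and AOS livers) to -0.78 under HFD, with 3 of 3 livers moving each way, and stayed called in all 19 alternatives (adjusted p from 0.0015 to 0.032). The Con-FMT livers, at 0.86 to 1.23 RPKM of Zbtb16, were also below every HFD liver (1.69 to 2.01 RPKM).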

How the results depend on the processing

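None of the alternatives turned the direction of a called value of the 10 genes. Counts of all called genes that moved by over 1.5 times were as follows. Without the third Con and AOS livers, HFD against Con had 0, A10-FMT against HFD 395, A10-FMT against Con-FMT 82, AOS against Con 0, HFD+AOS against HFD 496 and the difference between diets 15, with 1 of the 10 genes in the last. With only the groups compared they had 2, 78, 4, 41, 435 and 137 (Con-FMT against HFD 2), and 1 of the 10 genes was called in A10-FMT against HFD and 0 in A10-FMT against Con-FMT. With no filter HFD against Con had 26, A10-FMT against Con-FMT 100 and Con-FMT against HFD 2, and with a pseudocount of 0.1 Con-FMT against HFD had 2. Both left 1 of the 10 genes in the difference between diets. Equal medians gave 1070 in A10-FMT against HFD, and scaling to the same sum gave 504 in HFD+AOS against HFD and 2 for Con-FMT. Main counts were 40, 693, 177, 14, 919, 53 and, for Con-FMT against HFD, 1. The replicate block, where numbers share no deviation, gave 5 in HFD against Con, 2 in Con-FMT against HFD, and changed no call of the 10 genes. Leaving out 1 liver gave 0 to 178 in HFD against Con, 271 to 1218 in A10-FMT against HFD, 1 to 13 in Con-FMT against HFD, 51 to 564 in A10-FMT against Con-FMT, 0 to 132 in AOS against Con, 320 to 1282 in HFD+AOS against HFD and 29 to 186 in the difference. Of the 10 genes, 2 to 3 were called in A10-FMT and in HFD+AOS against HFD, with 1 to 2 for A10-FMT against Con-FMT and the difference. Of the 10 genes most like Cdkn1a, 9 or 10 remained under each scaling, the pseudocount and the third livers left out. Where a limit is the low level of Cdkn1a and Gadd45b, a value under 1 RPKM rests on few reads, and its log2 change is understated. Causes of these shifts were not tested.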
